A study of Mus musculus with 27 samples.

Results

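The 10 genes examined here are the G1 cyclins Ccnd1, Ccnd2, Ccnd3, Ccne1 and Ccne2, the kinases Cdk4 and Cdk6, and the cyclin-dependent kinase (CDK) inhibitors Cdkn1a, Cdkn1b and Cdkn2a. They were taken by symbol from the 23604 genes of the bulk RNA-seq table, and all 10 were found. Their levels were followed in 19 libraries of mouse pluripotent stem cells, all labelled WT. mESCs (2 libraries) were naive cells kept without feeders in N2B27 with 1 µM PD035901, 3 µM Chir99021 and 1000 units/ml LIF. EpiLCs (2 libraries) were taken from medium with 1% KSR, Activin A (20 ng/ml) and bFGF (12 ng/ml), and Epiblastoids on days 2, 3 and 4 (1 library each) from the same factors in Matrigel. EpiSCs (2 libraries) were primed cells grown on inactivated mouse embryonic fibroblasts (MEFs) in 15% KSR with both factors and 5 µM XAV939. fPSCs, the formative lines kept in N2B27 with Activin A, bFGF and XAV939, had 1 library at P1 and 7 long-term libraries. Of these 7, the libraries at P10, P20 and P30 carry the same protocol text as all other cell types, and those of 46C at P24, BVSC at P14, CMT at P11 and ROSAmTmG at P12 form a second set whose labels name a NEBNext Ultra kit. Per the study, 46C carries a Sox1-GFP reporter, BVSC a Blimp1-Stella reporter, and ROSAmTmG cells express tdTomato. The lines E5.5-fPSCs and E6.5-fPSCs, derived from epiblasts of those embryonic days, had 1 library each at P10.

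Entry into S phase is set in G1. D-type cyclins bind CDK4 or CDK6 and start the phosphorylation of the retinoblastoma protein, which then releases E2F transcription factors, and cyclin E with CDK2 completes that step. The Cip/Kip proteins p21 (Cdkn1a) and p27 (Cdkn1b) bind cyclin-CDK complexes, whereas p16Ink4a, 1 of the products of Cdkn2a, binds CDK4 and CDK6 directly, and the other product, p19Arf, stabilises p53 by holding back Mdm2. Mouse ESCs have been described with a short G1 and with cyclin E-CDK2 activity that varies little through the cycle. Neither was measured in the mESCs examined here.

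Levels are given in FPKM, which the authors scaled for transcript length and library size. Read numbers are not part of the table, and sequencing depth is therefore unknown. Between 10034 and 10933 genes reached 1 FPKM per library. Group differences are log2 fold changes of FPKM + 1 from limma, fitted over mESCs, EpiLCs, EpiSCs and the 7 long-term fPSC libraries on 12513 genes. A gene passed the threshold where p, adjusted over all genes by Benjamini-Hochberg, was under 0.05 and the change was 1.5-fold or more. The labels do not say that libraries of a group came from separate cultures, so the p-values measure the spread between these libraries. The spread of a gene was estimated over all of these groups together. Differences between the 2 sets of fPSC libraries therefore also enter the p-values of comparisons without fPSCs. The cell types carried their markers: 9 naive genes summed to 1244 to 1424 FPKM in mESCs and to at most 93.9 FPKM elsewhere, and 4 formative genes summed to 562 to 802 FPKM in the 7 fPSC libraries against 182 to 197 FPKM in EpiSCs. EpiSCs also carried RNA of fibroblast genes. The summed level of 22 fibroblast genes was 809 and 990 FPKM in EpiSCs and 5.29 to 61.3 FPKM in all other libraries, and 18 of the 22 were at 1 FPKM or more in both EpiSC libraries, with none at 0. RNA from the MEFs and RNA from the EpiSCs cannot be told apart in these 2 libraries, nor can more cells of a type be told from more RNA per cell in any bulk library.

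**Figure D1:**
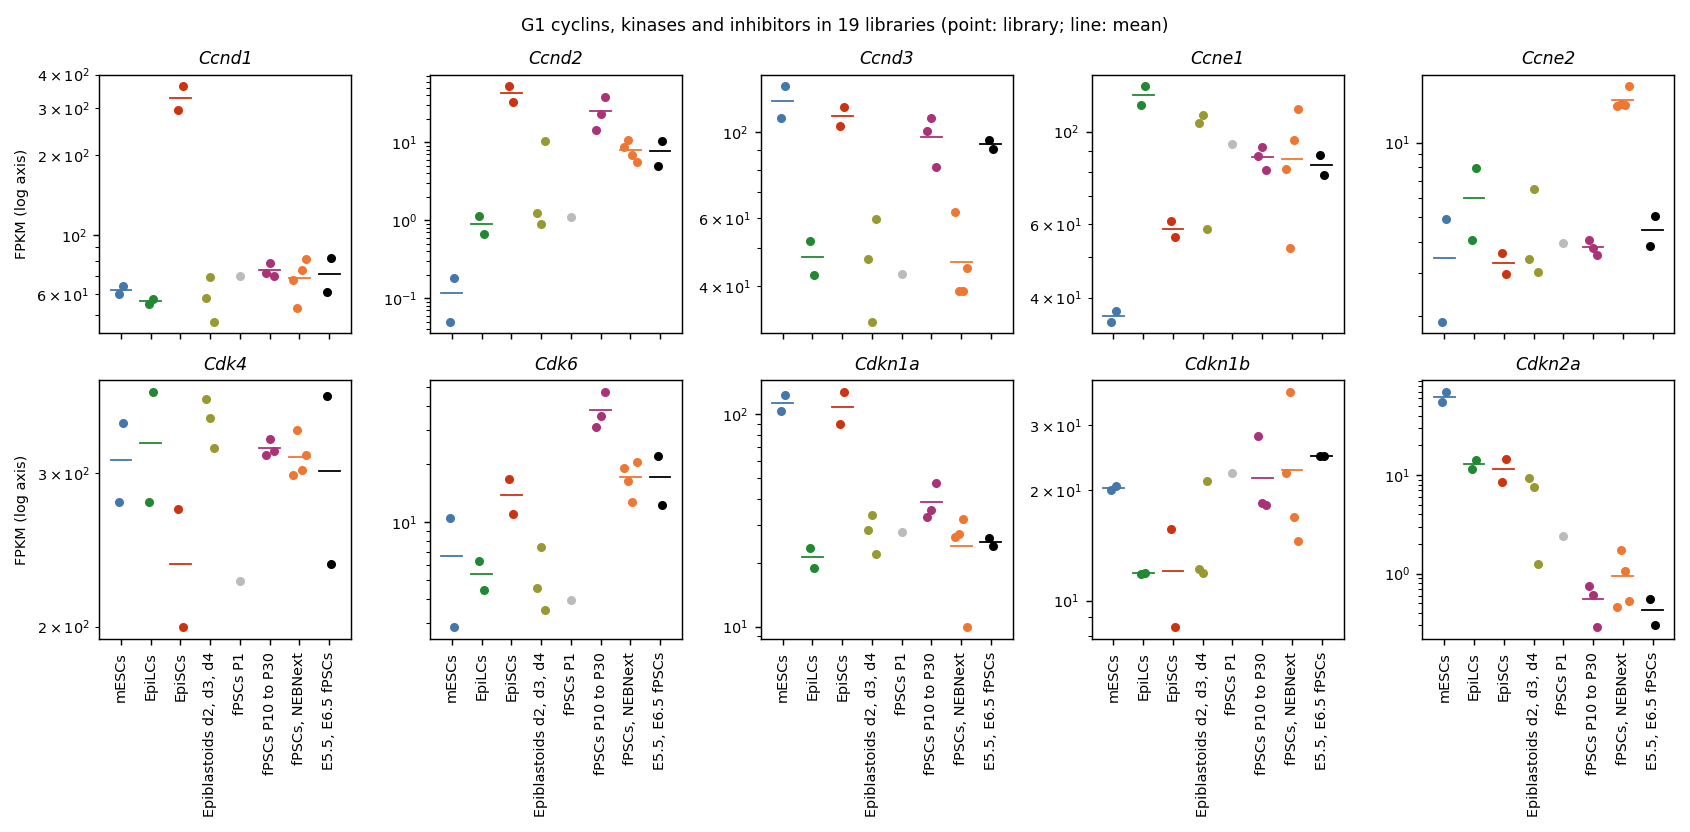
FPKM of the 10 genes (log axis, 1 panel per gene) in 19 libraries. Each point is 1 library, lines are group means, and Epiblastoid points run from day 2 to day 4. Ccnd2 spanned the widest range, from 0.0503 FPKM in an mESC library to 52.2 FPKM in an EpiSC library, and Cdk4 the narrowest, from 199.6 to 372 FPKM.

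The 3 D-type cyclins differed in which of them was the most abundant. Ccnd3 made up 64.4% and 67.0% of the summed D-type cyclin FPKM in the mESC libraries, whereas Ccnd1 made up 65.3% and 70.8% in EpiSCs. Ccnd2 was 0.0297% and 0.0927% of that sum in mESCs and reached 20.3% in fPSCs at P30. The sum itself was 169 and 196 FPKM in mESCs, 101 and 108 FPKM in EpiLCs, 449 and 511 FPKM in EpiSCs, and between 103 and 210 FPKM in the 7 fPSC libraries. EpiSCs therefore stood above every other library in total D-type cyclin RNA, with the fibroblast sums given above beside them.

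Ccnd1, the D-type cyclin best known as a target of mitogen signalling, was at 60.2 and 64.5 FPKM in mESCs, at 55.0 and 57.6 FPKM in EpiLCs and at 293 and 361 FPKM in EpiSCs. In the 7 fPSC libraries it ran from 53.04 FPKM in 46C to 81.6 FPKM in ROSAmTmG, with a median of 72.2 FPKM. EpiSCs stood apart from the other 3 groups, whose values lay close together. Ccnd1 was higher in EpiSCs than in mESCs by 2.37 ± 0.20 on the log2 scale (SE, limma adjusted p = 8.79e-07) and than in EpiLCs by 2.51 ± 0.20 (adjusted p = 9.60e-07), and it was lower in fPSCs than in EpiSCs by a log2 change of -2.19 ± 0.16 (adjusted p = 3.60e-07). Between fPSCs and mESCs the difference was 0.17, with a 95% interval from -0.18 to 0.53.

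Ccnd2 was nearly undetected in mESCs, at 0.0503 and 0.182 FPKM, and was at 0.658 and 1.13 FPKM in EpiLCs. It was at 52.2 and 33.3 FPKM in EpiSCs. In fPSCs it was 1.09 FPKM at P1, then 14.5 FPKM at P10, 23.0 FPKM at P20 and 38.5 FPKM at P30. The 4 NEBNext libraries held less, 8.65 FPKM in CMT, 10.8 FPKM in 46C, 6.93 FPKM in BVSC and 5.62 FPKM in ROSAmTmG. Every long-term fPSC library thus lay above every mESC and EpiLC library, and the fPSC and EpiSC ranges overlapped. Ccnd2 was higher than in mESCs by 3.61 ± 0.54 in fPSCs (log2 of FPKM + 1, adjusted p = 0.000132) and by 5.26 ± 0.67 in EpiSCs (adjusted p = 3.49e-05). These values understate the change of a gene so low in mESCs, and with a pseudocount of 0.1 they became 5.93 and 7.67. In EpiLCs against mESCs the difference was 0.75 ± 0.67 (adjusted p = 0.442). With a pseudocount of 0.1 that difference was 2.23 and passed the threshold (adjusted p = 0.0398), at levels near the floor. Against EpiLCs the rise was 2.86 ± 0.54 in fPSCs (adjusted p = 0.00293), which missed the threshold without EpiLCs replicate 2 (adjusted p = 0.0564, range over all alternatives 0.000135 to 0.0564), and 4.51 ± 0.67 in EpiSCs (adjusted p = 0.000220). The lower level in fPSCs than in EpiSCs, -1.65 ± 0.54 (adjusted p = 0.0315), was lost without either EpiSC library (adjusted p = 0.224 without replicate 1 and 0.107 without replicate 2), without CMT P11 (adjusted p = 0.0515), without a filter on low values (0.0567), with only those groups fitted (0.0501) and with the P10 to P30 libraries alone (-0.80, adjusted p = 0.110). Over its 17 alternatives the adjusted p ran from 9.73e-05 to 0.224.

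Ccnd3 was at 109 and 131 FPKM in mESCs, at 52.2 and 42.7 FPKM in EpiLCs and at 103 and 116 FPKM in EpiSCs. Among fPSCs the P10, P20 and P30 libraries were at 101, 109 and 81.1 FPKM, whereas the NEBNext libraries were at 62.0 (CMT), 38.7 (46C), 38.9 (BVSC) and 44.4 FPKM (ROSAmTmG). It was lower in EpiLCs than in mESCs by a log2 change of -1.32 ± 0.46 (adjusted p = 0.0464). That call did not hold without any 1 of the 4 libraries compared (adjusted p = 0.110 without mESCs replicate 1, 0.197 without mESCs replicate 2, 0.109 without EpiLCs replicate 1 and 0.176 without EpiLCs replicate 2), nor without a filter on low values (0.0714) or with upper-quartile scaling (0.0884), and its adjusted p ran from 0.00503 to 0.197 over 11 alternatives. No other group difference of Ccnd3 passed the threshold. EpiSCs lay above EpiLCs without overlap, by 1.20 ± 0.46 (adjusted p = 0.0592), a difference that passed with only those groups fitted (adjusted p = 0.00522). Against mESCs the fPSC value was -0.93 (adjusted p = 0.0598), with -0.31 for P10 to P30 and -1.39 for the NEBNext libraries, and it passed without P10 (-1.04, adjusted p = 0.0318) or without P20 (-1.06, adjusted p = 0.0235). Against EpiSCs it was -0.80 (adjusted p = 0.109) and passed without P20 (-0.93, adjusted p = 0.0466).

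The E-type cyclins activate CDK2. Ccne1 was at 35.05 and 37.1 FPKM in mESCs and at 116 and 128 FPKM in EpiLCs. EpiSCs held 61.2 and 56.0 FPKM, and fPSCs ran from 52.6 FPKM in 46C to 114 FPKM in ROSAmTmG, with a median of 87.5 FPKM. The mESC libraries were the lowest of the 19 and the EpiLC libraries the highest. Ccne1 was higher than in mESCs by 1.73 ± 0.27 in EpiLCs (adjusted p = 0.000354) and by 1.20 ± 0.22 in fPSCs (adjusted p = 0.000624). In EpiSCs it was 0.68 ± 0.27 above mESCs (adjusted p = 0.0538), short of the threshold, though past it with upper-quartile scaling (0.0443) or with only those groups fitted (0.0122), and -1.05 ± 0.27 from EpiLCs (adjusted p = 0.00952), a call lost without EpiLCs replicate 2 (0.0621) or without EpiSCs replicate 2 (0.0694), with an adjusted p of 0.00698 to 0.0694 over the alternatives. In fPSCs it was at -0.53 relative to EpiLCs (95% interval -1.004 to -0.06, adjusted p = 0.133) and at 0.52 relative to EpiSCs (95% interval 0.05 to 0.99, adjusted p = 0.0798). The second of these passed without 46C (0.63, adjusted p = 0.00756).

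Ccne2 was much lower than Ccne1 in every library, from 3.68 times lower in 46C to 31.0 times lower in Epiblastoids on day 2. It was at 1.91 and 4.95 FPKM in mESCs, at 4.05 and 7.88 FPKM in EpiLCs and at 3.58 and 2.96 FPKM in EpiSCs. In fPSCs the P10, P20 and P30 libraries were at 4.05, 3.77 and 3.54 FPKM and the NEBNext libraries at 14.04 (CMT), 14.3 (46C), 14.1 (BVSC) and 16.8 FPKM (ROSAmTmG). No comparison of cell types passed the threshold for Ccne2 with both sets of fPSCs together. Its fPSC values divided by set, without overlap.

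Of the 2 partners of the D-type cyclins, Cdk4 was the most even of the 10 genes. It was at 278 and 343 FPKM in mESCs, at 278 and 372 FPKM in EpiLCs, at 273 and 199.6 FPKM in EpiSCs and between 299 and 336 FPKM in the 7 fPSC libraries. None of the 6 comparisons passed the threshold. The largest difference was -0.46 ± 0.21 in EpiSCs against EpiLCs (95% interval -0.92 to -0.004, adjusted p = 0.103). In fPSCs against EpiSCs it was 0.44 ± 0.17 (95% interval 0.07 to 0.80, adjusted p = 0.0594), which passed without EpiSCs replicate 1 (0.66, adjusted p = 0.0476) and had an adjusted p of 0.0289 to 0.544 over the alternatives. Between fPSCs and mESCs it was 0.03, with a 95% interval from -0.33 to 0.40. Cdk6 was lower and more variable. It was at 10.5 and 2.86 FPKM in mESCs, at 6.32 and 4.47 FPKM in EpiLCs and at 16.6 and 10.98 FPKM in EpiSCs. fPSCs held 3.96 FPKM at P1, 30.9 at P10, 35.6 at P20 and 47.0 FPKM at P30, and between 12.7 FPKM in BVSC and 20.5 FPKM in ROSAmTmG among the NEBNext libraries.

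Every long-term fPSC library exceeded all mESC and EpiLC libraries for Cdk6. The FPKM of Cdk4 was 6.78 to 23.9 times that of Cdk6 in these 7 libraries, against 26.5 and 120 times in mESCs and 44.0 and 83.1 times in EpiLCs. Cdk6 was higher in fPSCs by 1.89 ± 0.47 against mESCs (adjusted p = 0.00529) and by 1.97 ± 0.47 against EpiLCs (adjusted p = 0.0123). The first call was lost without mESCs replicate 2 (1.108, adjusted p = 0.158, range 0.000640 to 0.158) and the second without EpiLCs replicate 1 (0.0724) or replicate 2 (0.142, range 0.00182 to 0.142). Within each set of fPSC libraries both kept their direction and call, at 2.52 and 2.60 for P10 to P30 and at 1.42 and 1.496 for the NEBNext libraries. EpiSCs were 1.13 above mESCs (adjusted p = 0.127), a difference that passed without mESCs replicate 1 (1.91, adjusted p = 0.0323), and 1.20 above EpiLCs (adjusted p = 0.124), which passed with only those groups fitted (adjusted p = 0.0114).

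Cdkn1a, which encodes p21 and is a p53 target, was at 103 and 124 FPKM in mESCs and at 89.7 and 127 FPKM in EpiSCs. It was at 23.6 and 18.8 FPKM in EpiLCs, and fPSCs ran from 9.92 FPKM in ROSAmTmG to 47.4 FPKM at P30, with a median of 32.3 FPKM. The 19 libraries formed a high pair of cell types, mESCs and EpiSCs, and a low remainder, since Epiblastoids (22.1 to 33.7 FPKM), fPSCs at P1 (27.9 FPKM) and both epiblast-derived lines (26.0 and 24.03 FPKM) were also low. Cdkn1a was lower than in mESCs by a log2 change of -2.37 ± 0.50 in EpiLCs (adjusted p = 0.00319) and -1.98 ± 0.40 in fPSCs (adjusted p = 0.00147), and higher in EpiSCs than in EpiLCs by 2.29 ± 0.50 (adjusted p = 0.00368). In fPSCs against EpiSCs it was -1.90 ± 0.40 (adjusted p = 0.00307), which missed the threshold without EpiSCs replicate 2 (-1.65, adjusted p = 0.0740, range over the alternatives 0.000141 to 0.0740). EpiSCs and mESCs differed by -0.08, with a 95% interval from -1.18 to 1.01. As for all genes in the EpiSC libraries, RNA of EpiSCs and of MEFs cannot be told apart in these Cdkn1a levels.

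Cdkn1b, which encodes p27, had the smallest relative range among the inhibitors. It was at 20.0 and 20.6 FPKM in mESCs, at 11.8 and 11.9 FPKM in EpiLCs, at 15.7 and 8.46 FPKM in EpiSCs and between 14.6 FPKM in ROSAmTmG and 36.9 FPKM in 46C in fPSCs. The fPSC range overlapped those of mESCs and EpiSCs and lay above EpiLCs. Its only call was 0.82 ± 0.30 in fPSCs over EpiSCs (adjusted p = 0.0496), at the edge of the threshold, and it was lost under 8 of 17 alternatives, with an adjusted p of 0.0321 to 0.507. Among these, the value was 0.41 without EpiSCs replicate 2 (adjusted p = 0.507), 0.76 without P10 (0.0695), 0.85 without P20 (0.0511) and 0.81 without CMT P11 (0.0733).

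Cdkn2a had the steepest fall among the 10 genes. It was at 55.6 and 69.4 FPKM in mESCs, at 11.5 and 14.1 FPKM in EpiLCs and at 8.47 and 14.5 FPKM in EpiSCs. Epiblastoids were at 9.28, 7.50 and 1.26 FPKM on days 2, 3 and 4, and fPSCs at 2.41 FPKM at P1. The 7 long-term fPSC libraries lay between 0.285 FPKM at P30 and 1.75 FPKM in 46C, and E5.5-fPSCs and E6.5-fPSCs were at 0.558 and 0.300 FPKM. Each of these 9 libraries was below every library of the other groups except Epiblastoids on day 4, which 46C exceeded. Cdkn2a was lower than in mESCs by a log2 change of -2.20 ± 0.34 in EpiLCs (adjusted p = 0.000330), -2.38 ± 0.34 in EpiSCs (adjusted p = 9.54e-05) and -5.19 ± 0.27 in fPSCs (adjusted p = 7.57e-09). It was also lower in fPSCs than in EpiLCs, by -3.00 ± 0.27 (adjusted p = 6.89e-06), and than in EpiSCs, by -2.81 ± 0.27 (adjusted p = 5.25e-06). All 5 calls held under every alternative run. The table gives 1 value for the gene, so p16Ink4a and p19Arf transcripts are not separated in it.

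**Figure D2:**
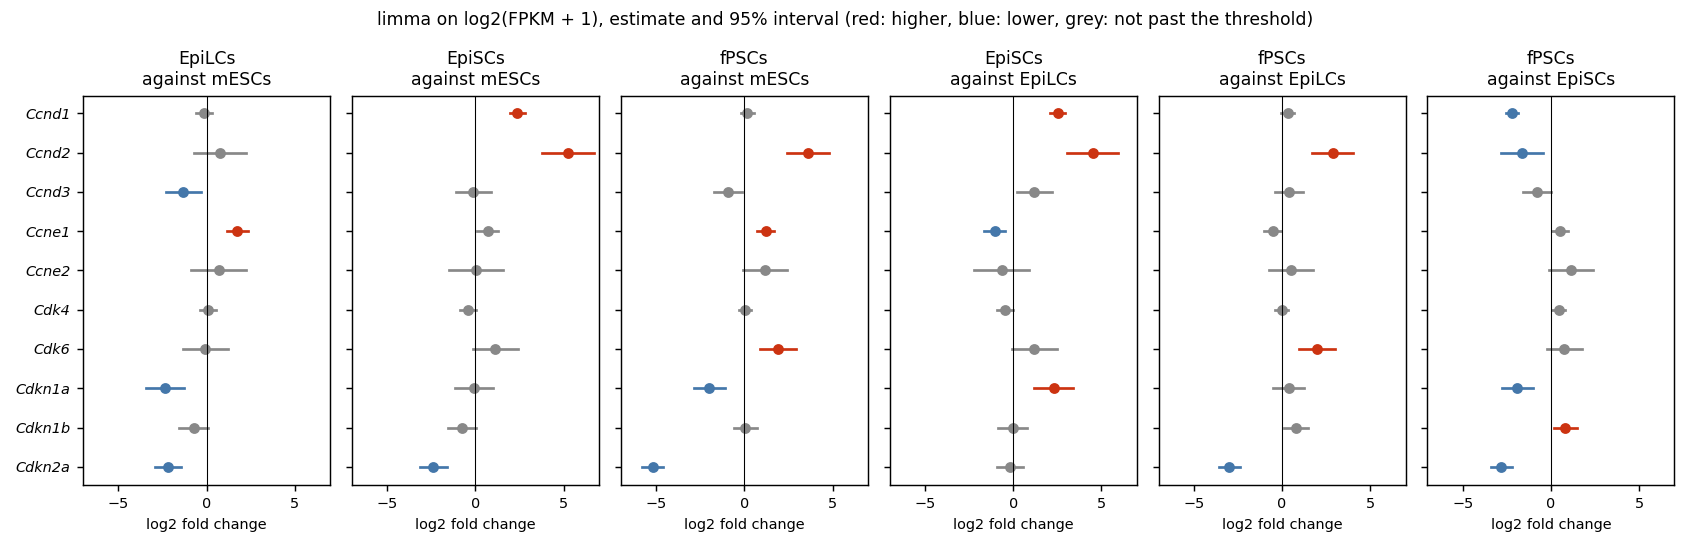
Log2 fold changes of the 10 genes in the 6 comparisons of cell types (limma on FPKM + 1). Points are estimates and bars are 95% intervals, in red where a gene was higher, blue where it was lower and grey where it did not pass the threshold. Cdkn2a in fPSCs against mESCs (-5.19) and Ccnd2 in EpiSCs against mESCs (5.26) lay farthest from 0, and Cdk4 and Ccne2 were grey throughout.

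Counted by comparison, EpiLCs against mESCs had 1 of 10 members higher and 3 lower, where 12.2% of all genes tested were higher and 17.4% lower. EpiSCs against mESCs had 2 higher and 1 lower (23.1% and 24.7% of all genes), and fPSCs against mESCs 3 higher and 2 lower (17.3% and 23%). EpiSCs against EpiLCs had 3 higher and 1 lower (20.4% and 15.5%). In fPSCs against EpiLCs, 2 were higher and 1 was lower (5.66% and 8.15%), and in fPSCs against EpiSCs 1 was higher and 4 were lower (13.3% and 19%). With 1 to 4 of 10 genes in a direction, nothing particular to the members is read from these counts. The comparisons share libraries, so their counts are not independent of each other. The median change of the members was -0.11, -0.02, 0.12, 0.58, 0.39 and -0.18 in this order, and that of all genes between -0.09 and 0.02.

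The 7 fPSC libraries themselves differed by set for several members. Per the study, P1, P10, P20 and P30 are passages of CMT, and CMT P11 is a cryopreserved passage. Line and set therefore overlap in CMT, whereas library protocol, cryopreservation and set cannot be told apart there. Passage also differs there. From P10 over P20 to P30, Ccnd2 (14.5, 23.0 and 38.5 FPKM) and Cdk6 (30.9, 35.6 and 47.0 FPKM) rose, while Ccnd3 and Ccne2 ended lower. Already against P10, the nearest passage, CMT P11 was lower in Ccnd2 (8.65 FPKM) and Cdk6 (18.96 FPKM). The part of passage in the differences within CMT was not tested. In a fit over the 7 libraries (10930 genes), 1 member was higher in the 4 NEBNext libraries and 3 were lower, where 20.8% of all genes were higher and 8.93% lower and the median of all genes was shifted by 0.19. Ccne2 was higher by 1.72 ± 0.11 (adjusted p = 8.21e-05). Ccnd2 was lower by a log2 change of -1.48 ± 0.31 (adjusted p = 0.00597), Ccnd3 by -1.07 ± 0.18 (adjusted p = 0.00211) and Cdk6 by -1.10 ± 0.19 (adjusted p = 0.00237). The ranges of the 2 sets did not overlap for any of these 4 genes. They did not overlap for Cdkn1a either, which did not pass the threshold (-0.76, adjusted p = 0.116). The share of all genes without overlap was not counted. With CMT P11 as the only NEBNext library, against P10 to P30, the lone sample being assumed to vary like the others, Ccne2 (1.65, adjusted p = 0.0127) and Cdk6 (-0.94, adjusted p = 0.0405) stayed past the threshold, whereas Ccnd2 was at -1.34 (adjusted p = 0.0849) and Ccnd3 at -0.62 (adjusted p = 0.0658). Of 19 E2F targets 4 were higher and 1 was lower, which is near the shares over all genes, and of 12 mitotic genes 4 were higher and 0 lower. Pcna averaged 306 against 117 FPKM and Top2a 111 against 44.3 FPKM.

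The set bore on the comparisons between cell types. With P10 to P30 alone, Ccnd3 was above EpiLCs by 1.01 (adjusted p = 0.00307), Cdkn1a by 0.82 (adjusted p = 0.0195) and Cdkn1b by 0.78 (adjusted p = 0.0478), and Cdk6 was above EpiSCs by 1.40 (adjusted p = 0.0252). With the NEBNext libraries alone, Ccne2 was above mESCs by 1.92 (adjusted p = 0.000477), above EpiLCs by 1.24 (adjusted p = 0.0155) and above EpiSCs by 1.89 (adjusted p = 0.000595), and Ccnd3 was below mESCs by a log2 change of -1.39 (adjusted p = 0.000321) and below EpiSCs by -1.26 (adjusted p = 0.000651). mESCs, EpiLCs and EpiSCs were all of the first set. The higher Ccnd2, Ccne1 and Cdk6 and the lower Cdkn1a and Cdkn2a of fPSCs against mESCs passed the threshold with either set.

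The lines derived directly from epiblasts gave a second view of the same medium. Against P10 to P30, 0 of 9 members tested passed the threshold in limma (Cdkn2a was too low to be tested), where 0.612% of 10458 genes were higher and 0.526% lower. At an unadjusted p under 0.05, which 1426 of the 10458 genes reached, there were 3 members. These were Ccnd2, at 4.98 and 10.3 FPKM (log2 change -1.57, adjusted p = 0.149), Cdk6, at 22.0 and 12.2 FPKM (-1.13, adjusted p = 0.122), and Cdkn1a, at 26.0 and 24.03 FPKM (-0.59, adjusted p = 0.222). Cdk6 passed without the E5.5 line (-1.53, adjusted p = 0.0452, range over the alternatives 0.0452 to 0.290). The 95% intervals of Ccnd1 (-0.46 to 0.34), Ccnd3 (-0.45 to 0.35) and Ccne1 (-0.40 to 0.28) stayed within a 1.5-fold change on either side.

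The single libraries of Epiblastoids and of fPSCs at P1 allow no test. P1 is a separate culture with XAV939 and not a later time point of the Epiblastoids, which were grown without it. Ccnd2 was at 1.24, 0.902 and 10.5 FPKM on days 2, 3 and 4 and at 1.09 FPKM in fPSCs at P1. Ccne1 was at 105, 109 and 58.3 FPKM on the same days, and Ccnd3 at 47.0, 32.3 and 59.6 FPKM. Cdkn1b was at 12.2, 11.9 and 21.1 FPKM on days 2, 3 and 4. The day 4 library lay apart from days 2 and 3 in Ccnd2, Ccne1, Cdkn1b and Cdkn2a. It also lay apart in lineage markers: 8 primitive streak and endoderm genes summed to 903 FPKM on day 4, against 8.27 FPKM on day 2, 52.4 FPKM on day 3 and 6.14 FPKM at P1. The same genes summed to 39.5 to 475 FPKM in the long-term fPSC libraries and to 253 and 343 FPKM in the epiblast-derived lines. Among the long-term libraries, the endoderm gene Cer1 was at 203 FPKM in 46C and at 2.23 to 46.2 FPKM in the others. The part of these lineage genes or cells in the levels of the members was not tested. Of the members that differed between long-term fPSCs and EpiLCs, Ccnd2 and Cdk6 were within or below the EpiLC range at P1 (1.09 and 3.96 FPKM), and Cdkn2a lay between the ranges of EpiLCs and long-term fPSCs, at 2.41 FPKM.

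Another 27 regulators of the G1/S step were tested, among them Rb family members, E2F factors and further inhibitors. Against mESCs, 8 were higher and 5 lower in EpiLCs, 5 and 4 in EpiSCs, and 9 and 5 in fPSCs. Over all genes, 12.2% were higher and 17.4% lower in EpiLCs, 23.1% and 24.7% in EpiSCs, and 17.3% and 23% in fPSCs, so the EpiSC counts lie below the shares of all genes. The median change of the 27 was 0.28, -0.18 and 0.30. Cdkn1c, which encodes the third Cip/Kip inhibitor p57, was at 1.67 and 1.53 FPKM in mESCs, 14.4 FPKM in both EpiLC libraries, 120 and 226 FPKM in EpiSCs and 5.77 to 32.5 FPKM in fPSCs. It had the largest change of these 27 genes in all 3 comparisons, at 5.93, 63.9 and 6.14 fold on the scale of FPKM + 1. Cdkn2b, the neighbour of Cdkn2a that encodes the CDK4/6 inhibitor p15Ink4b, was at 15.0 and 19.3 FPKM in EpiSCs, 4.45 and 5.31 FPKM in mESCs and 0.192 to 2.47 FPKM in fPSCs, and was lower in fPSCs than in EpiSCs by a log2 change of -3.51 (adjusted p = 4.14e-06). E2f8, a repressor E2F, was higher than in mESCs by 1.65 in EpiLCs (adjusted p = 0.00252), 2.54 in EpiSCs (adjusted p = 5.08e-05) and 1.86 in fPSCs (adjusted p = 0.000114). Both inhibitors that were highest in EpiSCs were so beside the fibroblast sums of 809 and 990 FPKM.

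Downstream of this step, 19 E2F targets were tested. Against mESCs, 1 was higher and 3 were lower in EpiLCs, 1 and 9 in EpiSCs, and 3 and 5 in fPSCs, with medians of 0.03, -0.80 and -0.003. Beside the shares over all genes given above, the lower count in EpiLCs and both counts in fPSCs are near background. Mybl2, a transcription factor of the S and G2 phases, was lower in all 3, at 171 to 211 FPKM in mESCs, 66.7 to 74.7 FPKM in EpiLCs, 33.6 to 39.0 FPKM in EpiSCs and 24.7 to 49.5 FPKM in fPSCs. EpiSCs were also lower in Orc1, an origin recognition subunit, by a log2 change of -1.69 (adjusted p = 0.000939), and in Tk1, thymidine kinase, by -1.48 (adjusted p = 7.92e-05). Of 12 mitotic genes, 6 were lower and 1 was higher in EpiSCs, among them Top2a (31.3 against 130 FPKM on average) and Mki67 (4.94 against 12.96 FPKM), while 2 were higher and 2 lower in fPSCs and 0 of 12 passed in EpiLCs by limma. The fPSC counts are again near the shares of all genes. The EpiSC levels of both lists stand beside the fibroblast sums of 809 and 990 FPKM. The part of MEF RNA in them was not tested.

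Cdkn1a is 1 of many p53 targets, and 18 others were tested. Of these, 2 were higher and 0 lower in EpiLCs than in mESCs, where 12.2% of all genes were higher and 17.4% lower. Cdkn1a was lower there. Gadd45a, a stress-induced gene, was at 17.7 and 19.9 FPKM in EpiLCs and at 14.2 and 15.8 FPKM in EpiSCs. Lower levels were found in mESCs (5.61 and 7.04 FPKM) and fPSCs (4.48 to 6.77 FPKM). In fPSCs against mESCs, 1 was higher and 4 were lower, with a median change of -0.37. Perp, a desmosomal membrane protein, was the 1 that was higher, by 1.84 (adjusted p = 0.000646). In EpiSCs against mESCs, 4 were higher and 2 lower. The counts in fPSCs and EpiSCs are at or below the 17.3% and 23%, and the 23.1% and 24.7%, of all genes, and nothing particular to p53 targets is read from them.

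Genes with the most similar profiles were sought among 7386 candidates whose mean was at least 10 FPKM in some group, as the 2 with the highest Pearson r of log2(FPKM + 1) over the 19 libraries, which include replicates of a group. For Ccnd1 these were Chrnb1 (r = 0.97) and Klhl30 (0.96), for Ccnd2 Snx19 (0.92) and Bag2 (0.91), and for Ccnd3 Prr13 (0.89) and Erf (0.88). For Ccne1 they were Tmem54 (0.94) and Rarg (0.91), and for Ccne2 Yeats4 (0.92) and Arl6 (0.92). The 2 kinases had lower values, with Psmb3 (0.87) and Ndufs8 (0.85) for Cdk4, and Mrpl38 (0.84) and Chst1 (0.84) for Cdk6. The inhibitors were matched by Jup (0.92) and Ncoa6 (0.91) for Cdkn1a, Fzd5 (0.86) and Thpo (0.83) for Cdkn1b, and Cldn4 (0.95) and Pim1 (0.95) for Cdkn2a. No member was among the 2 closest genes of another.

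The promoters of the members were read in fPSCs at P10 from ChIP-seq of H3K4me3, a mark of active and poised promoters, and of H3K27me3, the mark laid by Polycomb, and from bisulfite sequencing. Values are means within 1000 bp of a start site on NCBIM37 (mm9), at 14 coding starts of the 10 genes, and are ranked among 19433 genes with 1 start each. Each mark has 1 track, without an estimate of replicate error. The median of all genes was 3.11 RPKM for H3K4me3, 0.289 RPKM for H3K27me3 and a methylated fraction of 0.314. Each expressed member had a start above the median for H3K4me3: 7.71 RPKM at Ccnd1, 4.54 at Ccnd2, 4.85 at the downstream start of Ccnd3, 3.23 at Ccne1, 4.35 at Ccne2, 6.96 at Cdk4, 4.79 at Cdk6, 8.58 at the second start of Cdkn1a and 8.83 RPKM at Cdkn1b. Methylation at these starts was between 0 at Ccnd2 and 0.268 at Cdkn1a, below the median throughout.

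Cdkn2a stood apart in H3K27me3. Its 2 starts lie on the minus strand of chromosome 4. That of the p19Arf transcript, at position 88940523, held 2.03 RPKM of H3K27me3 (percentile 93.1 of all genes), 2.49 RPKM of H3K4me3 (percentile 44.0) and a methylated fraction of 0.015. That of the p16Ink4a transcript, at position 88928096, held 3.84 RPKM of H3K27me3 (percentile 99.1), 3.92 RPKM of H3K4me3 (percentile 58.5) and a fraction of 0.0167. Among the other 12 starts the highest H3K27me3 was 0.773 RPKM at Ccnd2 (percentile 76.5), the member that was expressed at 14.5 FPKM in fPSCs at P10 and was nearly undetected in mESCs. The starts of Cdkn2a thus combined the highest H3K27me3 of the members with H3K4me3 near the median and little methylation, in cells where the gene was at 0.754 FPKM. The alternative starts of Cdkn1a (positions 29227924 and 29235152 on chromosome 17) and the upstream start of Ccnd3 (position 47642000) were methylated at 0.853, 0.97 and 0.593 and held 1.37, 1.12 and 2.12 RPKM of H3K4me3.

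**Figure D3:**
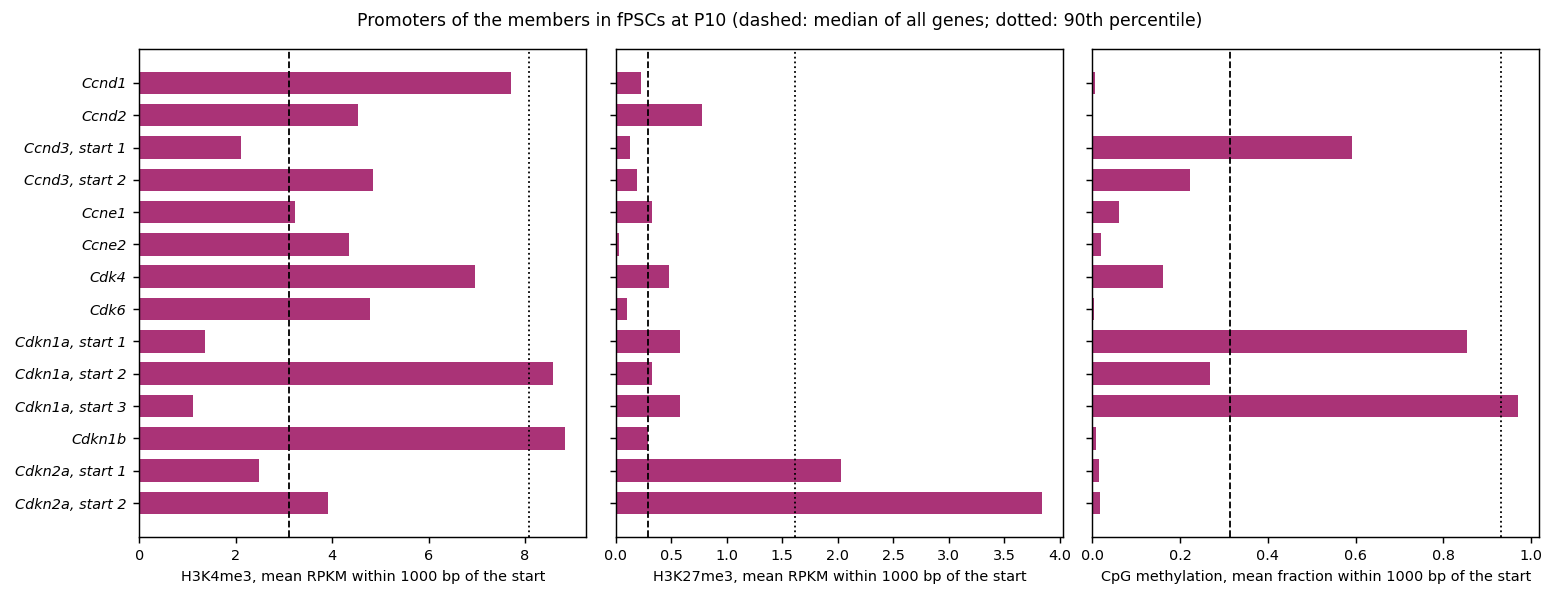
Mean H3K4me3 and H3K27me3 (RPKM) and methylation (fraction) within 1000 bp of 14 coding starts in fPSCs at P10, 1 bar per start. Dashed lines are the medians and dotted lines the 90th percentiles of all genes. Both starts of Cdkn2a exceed the 90th percentile of H3K27me3 (1.61 RPKM), and all other starts lie below it.

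The 250 bases upstream of both Cdkn2a starts and of the Ccnd2 start are shown, since these carried the 3 highest H3K27me3 values. They were read from NCBIM37 and end just before the most upstream annotated start within 1000 bp, and all 3 are on the minus strand, printed 5′ to 3′. Windows were searched on both strands for the E2F-type motifs TTTCCCGC, TTTGGCGC, TTTCGCGC and TTTGCCGC, and capitals mark a match. The Cdkn2a p19Arf window is chr4:88940558-88940807, the Cdkn2a p16Ink4a window chr4:88928097-88928346 and the Ccnd2 window chr6:127101067-127101316.
Cdkn2a, p19Arf start: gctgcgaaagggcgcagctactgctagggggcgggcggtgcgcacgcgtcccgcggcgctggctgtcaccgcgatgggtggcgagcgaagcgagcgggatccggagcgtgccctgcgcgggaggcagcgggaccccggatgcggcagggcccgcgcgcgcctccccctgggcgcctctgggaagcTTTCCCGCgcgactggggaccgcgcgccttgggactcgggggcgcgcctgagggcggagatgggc
Cdkn2a, p16Ink4a start: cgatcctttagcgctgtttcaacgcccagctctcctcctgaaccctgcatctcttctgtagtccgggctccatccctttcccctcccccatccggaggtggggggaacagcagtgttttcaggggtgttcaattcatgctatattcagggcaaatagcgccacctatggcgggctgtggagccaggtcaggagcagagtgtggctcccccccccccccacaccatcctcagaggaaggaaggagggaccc
Ccnd2 start: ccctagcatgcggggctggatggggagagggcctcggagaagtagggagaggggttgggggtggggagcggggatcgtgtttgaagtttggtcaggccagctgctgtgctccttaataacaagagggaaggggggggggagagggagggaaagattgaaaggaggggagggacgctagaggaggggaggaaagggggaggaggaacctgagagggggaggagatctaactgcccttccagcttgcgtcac

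The p19Arf window held 38 CpG and 77.6% G + C, the p16Ink4a window 7 CpG, and the Ccnd2 window 6 CpG and 61.6%, against a median of 9 CpG over all genes. A motif was found in the p19Arf window, with its first base 65 bases from the 3′ end of the window, which itself ends upstream of the p19Arf start given above. It was the only match in the 14 windows of the members, whereas 2.33% of the windows of all genes held one. A match describes these letters and not a bound site, and the lack of one says only that the letters are not within these 250 bases.

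Single-cell counts of 4 clones of fPSCs gave the spread of the members between cells. The tables hold 182 cells of the 192 named in the labels, with medians of 19078 to 33883 counts and 3348 to 4198 genes per cell over the clones. Cdkn2a has no row in these tables and was not analysed here. Values for the other 9 are counts summed per clone, scaled per clone total (CPM), and shares of cells with a count. These shares depend on the depth of a cell, and the exact 95% intervals cover counting error only. Genes are not compared with each other, since the protocol's efficiency per gene is not known.

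Ccnd1 had 254 to 287 CPM over the 4 clones and a count in 78.6% of cells (71.9% to 84.3%). Ccnd2, with 159 to 246 CPM, was found in 58.8% of cells (51.3% to 66.0%), from 41.3% in clone 3 to 80.4% in clone 2, and Ccnd3, with 49.4 to 109 CPM, in 54.9% (47.4% to 62.3%). All 3 D-type cyclins had a count in the same cell in 62 of 182 cells, 2 of them in 67, 1 in 30 and 0 in 23. Ccne1 (120 to 133 CPM) was found in 65.9% of cells and Ccne2 (179 to 210 CPM) in 67.0%. Cdk4 ran from 300 to 442 CPM and was found in 86.3% of cells, and Cdk6 ran from 434 to 738 CPM and was found in 90.7%. Cdkn1a, at 33.3 to 76.4 CPM, had a count in 26.9% of cells (20.6% to 34.0%), and Cdkn1b, at 7.99 to 45.6 CPM, in 21.4% (15.7% to 28.1%). Cdkn1b rested on 12, 67, 215 and 25 counts in clones 1 to 4, in 6 to 14 cells of each.

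**Figure D4:**
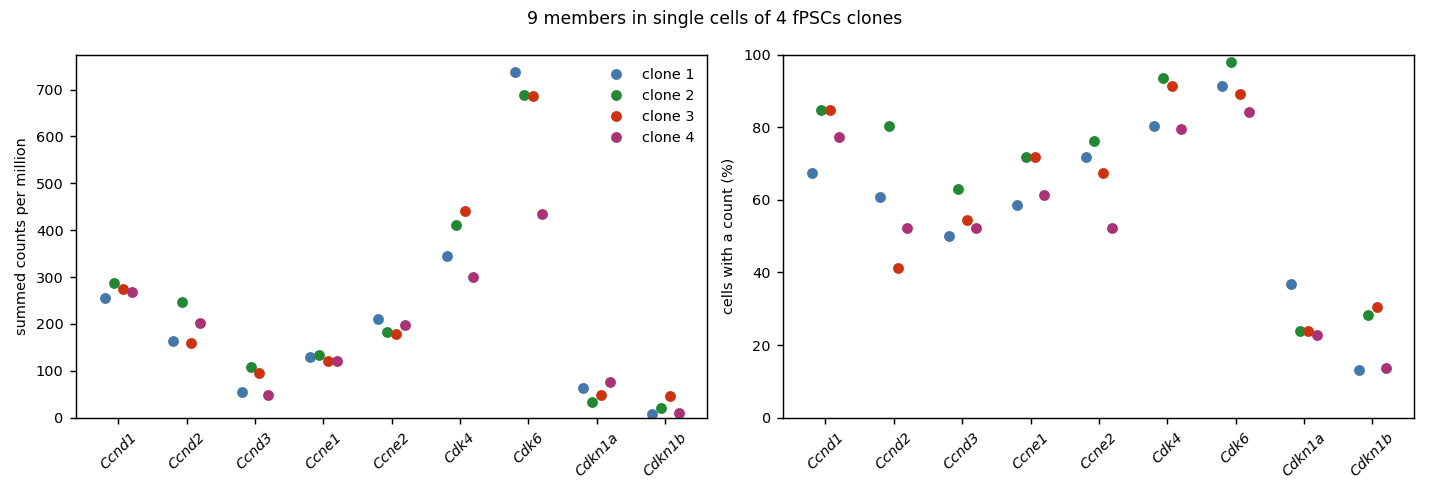
CPM summed per clone (left) and the percentage of cells with a count (right) for 9 members in 4 clones of fPSCs, 1 point per clone. Clones 1, 2 and 3 hold 46 cells and clone 4 holds 44. Ccnd2 ranged from 41.3% of cells in clone 3 to 80.4% in clone 2.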

How the data were processed

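Bulk RNA-seq of 19 libraries was deposited by the authors as FPKM, made after adapter trimming with cutadapt 1.11 by alignment with TopHat2 2.1.1 to Ensembl mouse cDNA of mm9 and estimation with Cufflinks 2.1.1. Depth is not known. Of 23608 entries, 4 with repeated names were left out. The 10 members and all gene lists were chosen with earlier results of these data known. Differences were tested on log2(FPKM + 1) by limma 3.58.1 (R 4.3.3, trend option), keeping genes that reached 1 FPKM in 2 or more libraries. This step was tested on simulated data. Alternatives were a pseudocount of 0.1, no filter, upper-quartile scaling, only the groups compared, no trend, no fold limit, a replicate block, 1 set of fPSCs and leaving out each library. Named genes beside the members are at most 3 called genes per list and comparison, with the largest change at a mean of 10 FPKM or more, or the 2 closest in profile.

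For ChIP-seq the authors deposited RPKM of 100 bp bins (Bowtie2 2.2.2, mm9), and a bin without an entry was taken as 0. Per the methods replicates were merged after alignment, though the tracks carry no statement of it. Methylation was deposited by the authors as a fraction from 0 to 1 without coverage. Its positions stand for windows, since 3.7% of 5000 drawn positions lie at a CpG and 99.4% have one within 50 bases. Starts are those of coding transcripts in GENCODE vM1 with a CCDS tag. Single-cell counts were deposited by the authors per gene and cell (Smart-seq2), without a statement on whether they count molecules or reads. 1 cell name of clone 3 is on 2 columns with different values, and both were kept.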

Additional observations from a re-analysis of the deposited data

How the results depend on the processing

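Of 1018 member results under an alternative, 962 kept their side of the threshold, 29 lost a call and 27 gained one. Among results that passed in either fit, 0 reversed direction. Differences that passed in neither fit could change sign and were still counted as kept. Cdk6 in EpiLCs against mESCs, for example, ran from -0.86 to 0.71 over its alternatives. Sequencing depth is unknown, so its part in the spread of low genes such as Ccnd2 in mESCs cannot be given. In fPSCs against EpiSCs the count of members past the threshold fell from 5 to 3 without a filter on low values and to 3 with only those groups fitted. Without the filter, epiblast-derived fPSCs against P10 to P30 gave 21 genes in place of 119. For fPSCs against EpiLCs the first set alone gave 3178 genes and 6 members, and the second set alone 2648 genes, in place of 1728 genes and 3 members. CMT P11 as the only library of its set, an alternative chosen after seeing the data, gave 2 members in place of 4. The cause of these changes was not tested, beyond the smaller number of libraries or the larger number of genes in each.

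Leaving out 1 library at a time gave 2291 to 3019 genes and 3 members for EpiLCs against mESCs, 4013 to 4724 genes and 3 to 4 members for EpiSCs against mESCs, and 3413 to 5173 genes and 4 to 6 members for fPSCs against mESCs. It gave 2425 to 3621 genes and 3 to 4 members for EpiSCs against EpiLCs, 865 to 1823 genes and 1 to 3 members for fPSCs against EpiLCs, and 1523 to 4463 genes and 2 to 6 members for fPSCs against EpiSCs. For the second against the first set it gave 2861 to 3325 genes and 4 members, and for epiblast-derived fPSCs 37 to 186 genes and 0 to 1 members. A group left with 1 library was assumed to vary like the others.

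Upper-quartile scaling moved the share of higher calls in EpiLCs against mESCs from 41.1% to 50.1%. mESCs, EpiLCs and EpiSCs share replicate numbers, and nothing in the labels says that a number marks a shared batch. Deviations of same-numbered libraries correlated at 0.21 for mESCs with EpiLCs, -0.20 for mESCs with EpiSCs and -0.14 for EpiLCs with EpiSCs, over 12185 genes. The fit with a replicate block also left out all fPSC libraries. EpiLCs against mESCs gave 4107 genes and 4 members in it. EpiSCs against mESCs gave 6685 genes and 6 members in place of 3, and EpiSCs against EpiLCs 5196 genes and 6 members in place of 4. Under the block, Ccne1 (adjusted p = 0.0294), Cdk6 (0.0202) and Cdkn1b (0.0488) passed in EpiSCs against mESCs. Ccnd3 (0.00658) and Cdk6 (0.0206) passed in EpiSCs against EpiLCs. Without a block but with only the groups compared, Ccne1 also passed in EpiSCs against mESCs (0.0122), while Cdk6 and Cdkn1b did not. Ccnd3 (0.00522) and Cdk6 (0.0114) then passed in EpiSCs against EpiLCs. The block was not tested apart from leaving out the fPSC libraries.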
